A study of Mus musculus with 12 samples.

Results

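The nuclear-encoded subunits of the respiratory chain were 85 genes of the 32285 in the count matrices. They were chosen by symbol alone, with no measured value: Ndufa, Ndufb, Ndufc, Ndufs or Ndufv followed by a digit, Sdha to Sdhd, and every symbol that starts with Uqcr, Cox4 to Cox8 or Atp5. By complex they were 38 genes of complex I, 4 of complex II, 8 of complex III, 18 of complex IV and 17 of complex V. Sorting by symbol leaves Ndufa4, now regarded as a subunit of complex IV, among the complex I genes, and Ndufb1-ps is annotated as a non-coding RNA.

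The series profiled single nuclei of mouse fat by 10x 3′ RNA sequencing, in 12 libraries with 1 library per group. All mice were C57BL/6J males on normal chow. mPRAT and iBAT were sampled at 1, 2 and 6 months at room temperature (22 °C) and at 6 months after cold (4 °C) for 3 days; lPRAT at 2 and 6 months at 22 °C; and iWAT at 6 months at 22 °C and after the same cold. The labels name the depots by these abbreviations only. They give the oldest mice as 6 months in the titles and as 16 weeks in the age field, so "6 months" below is the title's word. How many animals were pooled in a library is not stated. Nuclei were freed by douncing and sorted on a DNA dye, so the values below are those of RNA in or on nuclei.

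The respiratory chain moves electrons from NADH through complex I, and from succinate through complex II, to ubiquinone, complex III and cytochrome c, and complex IV hands them to oxygen. Complexes I, III and IV pump protons, and complex V, the ATP synthase, lets them flow back to make ATP. In brown adipocytes the uncoupling protein Ucp1 lets protons return without ATP synthesis, so the chain burns fuel as heat. Mitochondrial DNA encodes some core subunits of complexes I, III, IV and V; the nuclear genes described here encode other subunits, among them electron-carrying core subunits of complex I, and several have tissue isoforms. The choice by symbol leaves out Cyc1, the cytochrome c1 of complex III, which is on the list of electron carriers below, and Ndufab1 of complex I.

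Every level is in CPM: the unique molecular identifiers (UMIs) of a gene per 1000000 UMIs of the adipocyte-like nuclei of that library. With 1 library per group there was no test between groups and there are no p-values. Intervals are exact 95% intervals, cover counting error only, and say nothing of the spread between mice. A gene entered a comparison with at least 20 UMIs over both libraries. Its log2 ratio was taken after adding 1 CPM to each, and "past the fold" means at least 1.5-fold with that addition. The share of all genes past the fold is given for the main processing only. Counts of members under other processing choices have no such share beside them.

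Of 119035 barcodes, 96649 nuclei passed the filters, and 65484 of them, in 7 of 21 clusters, were adipocyte-like. All 10 adipocyte markers were detected in adipocyte-like nuclei of every library, from 1953 nuclei (lPRAT at 6 months) to 15406 (iBAT at 6 months) and from 2587249 UMIs (lPRAT at 2 months) to 70076316 (cold iBAT). The summed 10 skeletal muscle markers ranged from 2.23 CPM (cold iBAT) to 128 CPM (iBAT at 2 months), and the mitochondrial share of UMIs from 0.114% (cold iWAT) to 1.96% (lPRAT at 2 months). In cold mPRAT 66.0% of barcodes exceeded the limit of 10% mitochondrial UMIs and were left out, against 2.03% at room temperature. Between libraries 1177 barcodes recurred, at most 0.685% of the smaller library. Depth differed between the libraries compared. At 6 months the median UMIs per adipocyte-like nucleus were 2152 in iBAT at room temperature and 6625 in cold. They were 6172 and 4432.5 in mPRAT, 6557 and 4701 in iWAT, and 6553 in lPRAT at room temperature. At 1 month they were 1719 in mPRAT and 1230 in iBAT. The part of depth in the comparisons was not tested. One cluster, number 5, which holds 90.0% of the adipocyte-like nuclei of lPRAT at 6 months and 73.9% of those of cold iWAT, was left unnamed by the first naming rule and is adipocyte-like by its markers; values without it stand beside the results it moves most.

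At matched age and temperature the summed subunits were highest in iBAT and, where iWAT was sampled, lowest in iWAT. In every library they were a small part of nuclear RNA. In iBAT they took 4111 CPM at 1 month, 4634 at 2 months, 4914 at 6 months and 6996 in cold. In mPRAT they took 3612, 3436 and 3599 CPM at 1, 2 and 6 months and 5699.9 in cold. In lPRAT they took 2108 and 2292 CPM at 2 and 6 months, and in iWAT 1682 CPM at room temperature and 2182 in cold. The libraries of iBAT and mPRAT thus lay above all 4 of lPRAT and iWAT, and cold gave the highest value within each depot that was cooled.

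**Figure D1:**
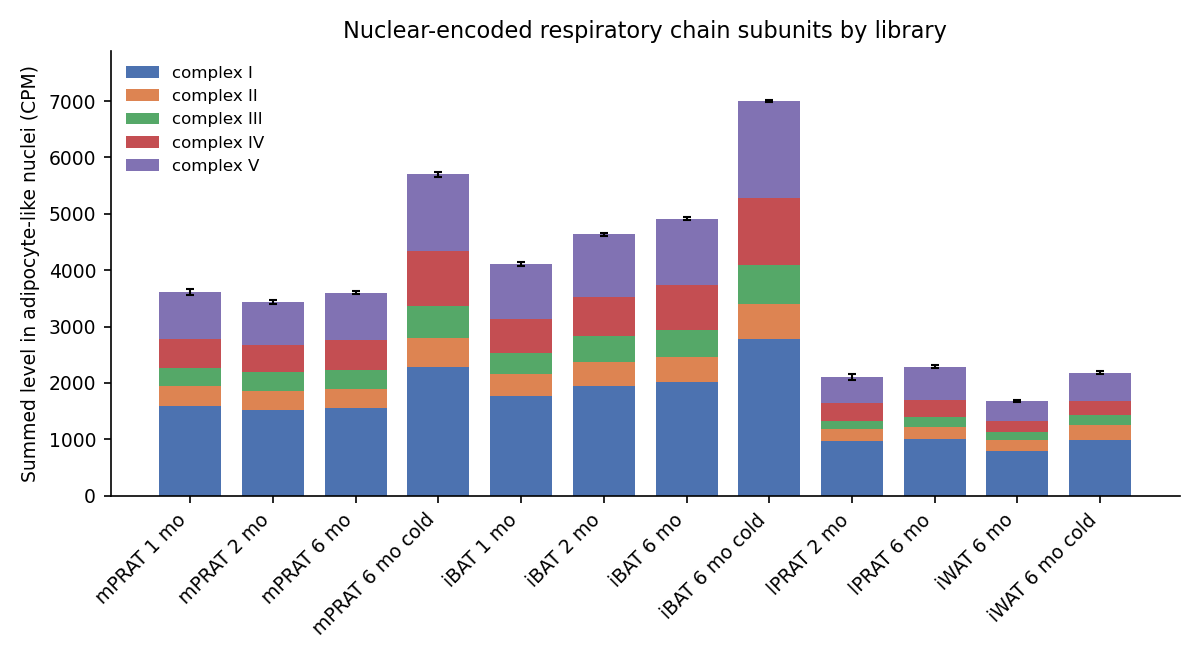
Summed CPM of the subunits of complexes I to V (stacked bars, from 0) in the adipocyte-like nuclei of each of the 12 libraries, with the exact 95% Poisson interval of the total. The bars reach 6996 CPM in cold iBAT and 1682 CPM in iWAT at room temperature.

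The 5 complexes kept this order of depots. Complex I, the NADH dehydrogenase, had 2013 CPM in iBAT, 1549 in mPRAT, 1003 in lPRAT and 791 in iWAT at 6 months and 22 °C. Complex II, succinate dehydrogenase, had 456, 350.3, 219.6 and 202 CPM in the same order. Complex III had 475, 325, 182 and 136 CPM, complex IV, cytochrome c oxidase, 795, 535, 299 and 189, and complex V 1175, 839, 588 and 364. The counts were not divided by gene length, so no order between genes or complexes is read from them: Ndufs4, an accessory subunit of complex I, had the highest count of all members in each library (129 to 459 CPM) and spans 100464 bases, against a median of 7206 bases for the members.

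Not every member was detectable. Cox8c, a testis isoform of complex IV, had 0 UMIs in all 12 libraries, and Ndufa4l2, Cox6a2 and Cox7b2 had 10, 8 and 23 UMIs in all. Cox4i2, the lung isoform, had 41 UMIs and at most 0.812 CPM, in iBAT at 1 month. In each comparison below, 78 to 80 of the 85 members had enough counts.

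In mPRAT the summed subunits were 1.58-fold higher in cold (interval 1.57 to 1.60), 5699.9 against 3599 CPM. Of 80 members, 80 were higher in the cold library and 55 were past the fold, with none past it in the other direction. With each gene's level in macrophage-like nuclei of the same library, which share the free RNA of the suspension, subtracted, 4 were past it downward. That level also holds what macrophage-like nuclei express themselves, and the 2 parts were not separated. Values after subtraction are thus not levels corrected for free RNA alone. Here and below, a difference under 0 after this subtraction was set to 0. Over all genes tested 16.7% were at least 1.5-fold higher in cold and 16.7% lower. The median member had a log2 ratio of 0.74, against -0.03 for the median of all genes. Complex IV had the largest fold, 1.82, with 12 of 14 members past the fold. Complex III followed with 1.74 and 7 of 8, then complex V with 1.62 and 11 of 17. Complex II had 1.51 and 2 of 4, and complex I 1.47 and 23 of 37. The part of gene length in this order was not tested.

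The members with the largest ratios in cold mPRAT came from 4 complexes. Atp5d, the delta subunit of the central stalk of ATP synthase, had 50.9 CPM in cold against 13.6 (log2 1.83). Uqcr10, a small subunit of complex III, had 54.7 against 17.6 CPM (1.58), and Ndufb10, in the membrane arm of complex I, 46.1 against 17.3 CPM (1.37). Cox5b, a nuclear subunit of complex IV, had 41.5 against 15.9 CPM (1.33) and Cox7a1, the heart and muscle isoform of subunit 7a that brown fat also uses, 25.9 against 9.87 CPM (1.31). The lowest ratios were those of Ndufa7 (0.06), Atp5j (0.22) and Ndufc2 (0.24).

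The catalytic subunits of complexes I and II lay lower in that range. Ndufs1, which carries electrons in the peripheral arm of complex I, had a log2 ratio of 0.28, Ndufv1, which binds NADH, 0.71 and Ndufs4 0.37. Sdha, the flavoprotein of complex II, had 0.57, Sdhb, its iron-sulphur subunit, 0.81, and the membrane anchors Sdhc and Sdhd 0.30 and 0.95. In complex III the core proteins Uqcrc1 and Uqcrc2 had 0.66 and 0.53 and the Rieske protein Uqcrfs1 0.82. In complex IV, Cox4i1, the common isoform of subunit 4, had 131 against 54.0 CPM (1.26), and Cox5a 110 against 58.2 CPM (0.90). The alpha, beta and gamma subunits of ATP synthase, Atp5a1, Atp5b and Atp5c1, had 0.81, 0.86 and 0.42.

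In iBAT the summed subunits were 1.42-fold higher in cold (interval 1.42 to 1.43), 6996 against 4914 CPM. Of 80 members, 78 were higher and 29 past the fold, none in the other direction, against 13.2% of all genes at least 1.5-fold higher and 19.2% lower. The median member had a log2 ratio of 0.50 and the median gene -0.09. By complex the folds lay between 1.38 (complexes I and II) and 1.49 (complex IV), with 12 of 37, 2 of 4, 3 of 8, 7 of 15 and 5 of 16 members of complexes I to V past the fold. With TMM scaling, which raised the median of all genes by 0.21, 64 members were past the fold, and with the macrophage-like level subtracted 57 upward and 1 downward.

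Atp5d again had the highest ratio in iBAT, 82.9 CPM in cold against 28.2 (log2 1.52). Atp5h, in the peripheral stalk of ATP synthase, had 119 against 46.3 CPM (1.34), Uqcr10 65.3 against 26.5 (1.27), Ndufs8, an iron-sulphur subunit of complex I, 18.3 against 7.05 (1.26), and Ndufa13, an accessory subunit, 29.5 against 12.1 (1.22). Among members with at least 50 UMIs over both libraries, from which the highest and lowest are named throughout, the lowest was Atp5g3, a gene for the c-ring subunit of ATP synthase, with 102 against 112 CPM (-0.14), then Ndufb6 (0.09) and Ndufa7 (0.10). Cox4i1 had 136 against 69.3 CPM (0.97), Sdha 283 against 218 (0.37) and Ndufs4 459 against 323 (0.51).

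In iWAT the summed subunits were 1.30-fold higher in cold (interval 1.28 to 1.31), 2182 against 1682 CPM. Of 79 members, 71 were higher and 10 past the fold, none in the other direction, against 6.21% of all genes at least 1.5-fold higher and 18.7% lower. The median member had a log2 ratio of 0.35 and the median gene -0.19. Atp5k, a dimerisation subunit of ATP synthase, had 8.18 against 3.13 CPM (1.15), Uqcrq, a small subunit of complex III, 11.7 against 6.00 (0.86), Cox5a 32.6 against 18.2 (0.81), Cox7b, a small subunit of complex IV, 23.4 against 13.7 (0.73) and Atp5l 57.2 against 34.4 (0.72). The lowest were Ndufa13 (-0.20), Atp5d with 4.33 against 5.09 CPM (-0.19) and Ndufs5 (-0.18). Atp5d, first in both other depots, was therefore not higher in cold iWAT. With the macrophage-like level subtracted, 51 members were past the fold upward and 5 downward, and Uqcrq turned to -0.59 in iWAT. Its cold level lay below the macrophage-like 13.1 CPM (9 UMIs) and was set to 0. With TMM scaling 18 members were past it upward, as many as with the mean of nuclei in place of summed counts.

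In all 3 cold comparisons 69 of 78 members were higher, 88.5%, against 14.1% of the 13894 genes measured in all 3. Only Sdhd, Uqcrq and Cox5a were past the fold in each, 3.85% of members against 1.68% of genes; Uqcrq turned in iWAT with the macrophage-like level subtracted (-0.59). Sdhd had 36.9 against 18.5 CPM in mPRAT, 47.8 against 28.0 in iBAT and 10.1 against 6.00 in iWAT. The 3 cold libraries and their controls are separate libraries, so no control is shared here.

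**Figure D2:**
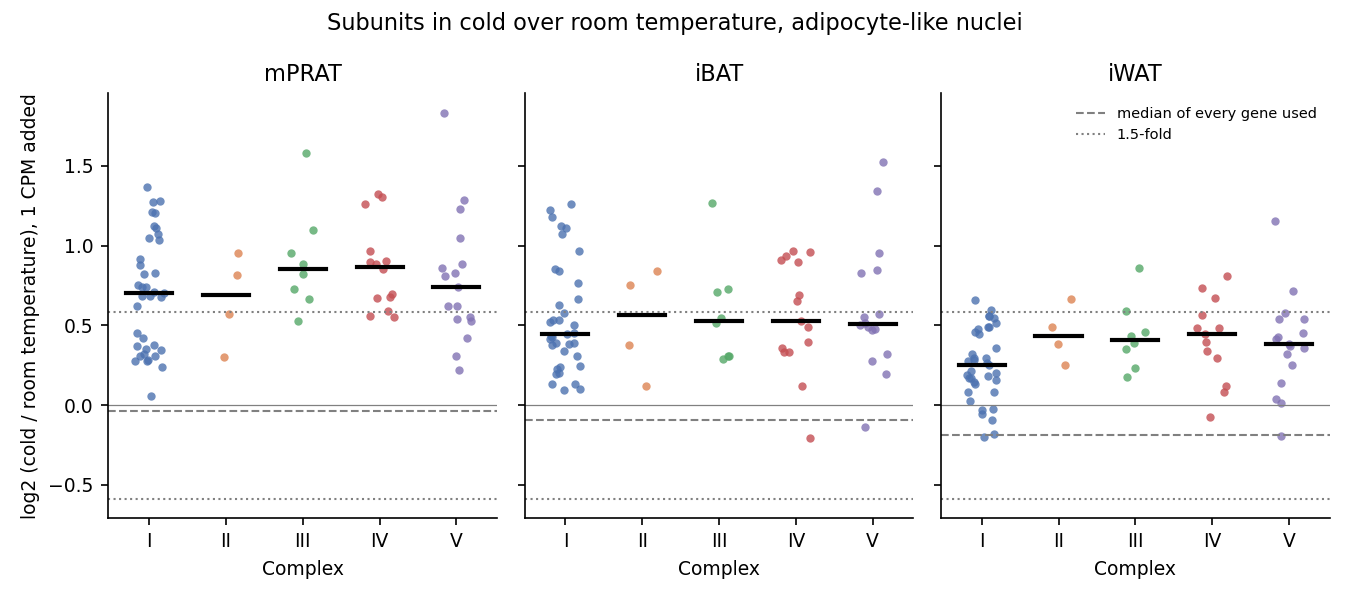
Log2 ratio of cold over room temperature for each member, by complex, in mPRAT, iBAT and iWAT, with 1 CPM added; points are members, short bars their medians, the dashed line the median of all genes and dotted lines the 1.5-fold limits. All 80 members lie above 0 in mPRAT, 78 of 80 in iBAT and 71 of 79 in iWAT.

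Other measurements moved with these cold values. In mPRAT the mitochondrial share of adipocyte-like UMIs was 1.39% in cold and 0.26% at room temperature, and in iBAT 0.26% against 0.83%; in iWAT it was 0.114% against 0.139%. The summed subunits in macrophage-like nuclei were 1.37-fold higher in cold mPRAT, 0.913-fold in cold iBAT and 0.914-fold in cold iWAT. In progenitor-like (ASPC-like) nuclei the folds were 1.38, 1.21 and 1.13, and in endothelial-like nuclei 1.43, 1.03 and 1.10. The part of free RNA in the mPRAT value was not tested; with the macrophage-like level of each library subtracted, the log2 ratio of the sum was 0.85 in mPRAT, 1.14 in iBAT and 1.57 in iWAT, and without subtraction 0.66, 0.51 and 0.38.

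Different clusters held most adipocyte-like nuclei at the 2 temperatures. In mPRAT clusters 0 and 3 held 46.5% and 32.7% at room temperature and cluster 9 held 61.3% in cold; in iBAT cluster 3 held 90.6% and then cluster 9 98.2%. In cold mPRAT cluster 9 had 7169 CPM of the subunits, cluster 0 3536 and cluster 5 3319. The same clusters had 5808, 2782 and 2297 CPM at room temperature, so each was higher in the cold library. In iWAT cluster 0 held 94.2% of nuclei at room temperature, with 1680.4 CPM, and 18.5% in cold, with 2539 CPM, while cluster 5 held 73.9% in cold, with 1962 CPM. Without cluster 5, which left 705 of 2699 nuclei of cold iWAT, the log2 ratio of the sum in iWAT was 0.88. In that set 62 members were past the fold, against 10 with cluster 5, and no share of all genes is given for it.

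**Figure D3:**
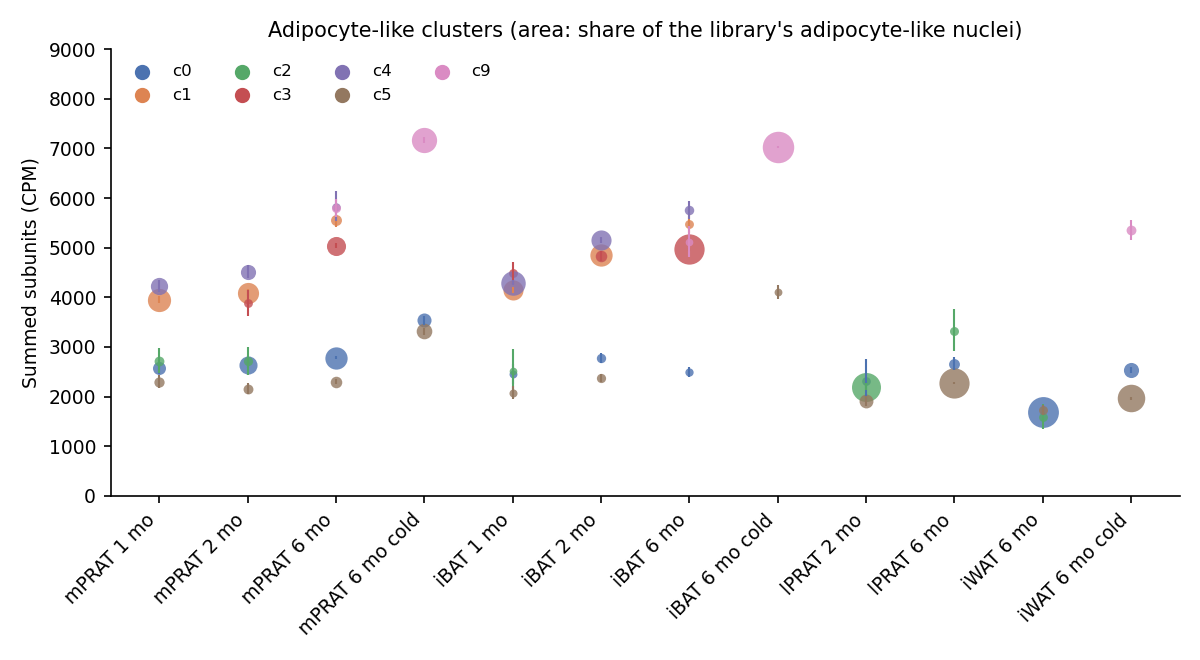
Summed subunits (CPM, with exact 95% Poisson intervals) in each adipocyte-like cluster with at least 50 nuclei of each library; the area of a point grows with its share of the library's adipocyte-like nuclei. Cluster 9 lies at 7169 CPM in cold mPRAT, 7038 in cold iBAT and 5355 in cold iWAT, and cluster 0 at 2782 CPM in mPRAT at 6 months.

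Cluster 9 was present in all 3 cooled depots. It had 7169 CPM in cold mPRAT, 7038 in cold iBAT and, in 126 nuclei (4.67%) of cold iWAT, 5355 CPM with 741 CPM of Ucp1. The other iWAT clusters had 2.32 CPM (cluster 5) and 18.6 CPM (cluster 0) of Ucp1. Members, lists of related genes and mitochondrial genes were left out of the genes used to form the clusters, but Ucp1 was not.

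After thinning each nucleus to 1000 UMIs, nuclei with a Ucp1 UMI were compared with nuclei without one in the same library. In cold iWAT 88 nuclei with Ucp1 had 5.33 subunit UMIs per 1000 against 2.28, 2.34-fold (interval 2.13 to 2.57). In mPRAT the fold was 1.05 at 1 month, 1.33 at 2 months, 1.56 at 6 months and 1.53 in cold. In iBAT it was 1.01, 1.11, 1.05 and 1.05. Nuclei without a Ucp1 UMI at this depth include nuclei that express the gene, so these folds compare detection and not types. Split instead by Ucp1 detection before thinning, which puts other nuclei in the groups, the nuclei with at least 1000 UMIs had 4509 against 2074 CPM in cold iWAT, 7044 against 3625 CPM in cold mPRAT and 7020.0 against 5295 CPM in cold iBAT.

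Depots were compared at 6 months and 22 °C, with the same mPRAT library in 3 of these comparisons. Against iWAT, mPRAT had 2.14-fold more of the summed subunits (interval 2.12 to 2.16). Of 80 members, 79 were higher in mPRAT and 73 past the fold, none in the other direction, against 17% of all genes at least 1.5-fold higher and 11.9% lower. Complex IV differed 2.84-fold, complex III 2.39-fold, complex V 2.31-fold, complex I 1.96-fold and complex II 1.73-fold. The exception was Atp5g1, the c-ring gene with the lowest counts, at 0.949 CPM in mPRAT and 1.36 in iWAT (log2 -0.28). By gene length, under 5000 bases, to 10000, to 20000 and longer, the sum of mPRAT over iWAT was 3.18, 2.31, 2.01 and 1.81. For lPRAT over iWAT it was 2.00, 1.58, 1.32 and 1.06. For mPRAT over lPRAT it was 1.59, 1.46, 1.52 and 1.72, and for mPRAT over iBAT 0.645, 0.728, 0.720 and 0.794. The part of gene length in these folds and in the order of complexes was not tested.

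Against lPRAT, mPRAT had 1.57-fold more (1.55 to 1.59), with 74 of 80 members higher and 42 past the fold against 15.4% of all genes, and 1 member past it in the other direction against 15.8%. That member was Atp5g1, at 0.949 against 1.97 CPM (-0.61), followed by Atp5d at 13.6 against 20.3 (-0.55). At the high end were Cox8b, Cox7a1, Ndufa1 (5.82 against 1.78 CPM, log2 1.30), Cox5a (58.2 against 23.4, 1.28) and Ndufs6, a subunit of the peripheral arm of complex I (14.2 against 5.59, 1.21). Without cluster 5, which left 196 nuclei of lPRAT, the log2 ratio of the sum was 0.48, against 0.65 with it, 4 members were past the fold downward and Atp5g1 turned to 0.87. In 1 other comparison, mPRAT over lPRAT at 2 months, the sum differed 1.63-fold with 46 of 78 members past the fold, against 23.1% of genes, and 2 lower against 24.1%.

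Against iBAT, mPRAT had 0.732-fold the summed subunits (0.727 to 0.738). Of 80 members 3 were higher in mPRAT and 27 were at least 1.5-fold lower, against 11.2% of all genes, and 0 at least 1.5-fold higher, against 14.2%. The lowest ratios were those of Atp5g3 (44.8 against 112 CPM, log2 -1.30), Cox7a1 (9.87 against 24.4, -1.23) and Atp5d (13.6 against 28.2 CPM), and the highest those of Ndufb3 (0.18) and Ndufa7 (0.11). In macrophage-like nuclei the subunits had 1801 CPM in mPRAT and 3274 in iBAT. With each gene's macrophage-like level subtracted, and differences under 0 set to 0, the log2 ratio of the sum was -0.0039 instead of -0.45. Cox7a1 then turned to 3.44 and Atp5d to 2.56, and 30 members were past the fold upward and 16 downward. For Cox7a1 and Atp5d the iBAT level lay below the macrophage-like 33.9 CPM (11 UMIs) and 40.1 CPM (13 UMIs). It was set to 0, so these ratios reflect only the mPRAT level and the added 1 CPM. The part of free RNA in this difference was not tested. Without cluster 5, 12 members were past the fold downward, as many as with the mean of nuclei, and with TMM scaling 44.

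The clusters of mPRAT spread around the iBAT level. At 6 months cluster 3 had 5042 CPM in mPRAT (32.7% of nuclei, 462 CPM of Ucp1) and 4965 CPM in iBAT (90.6%, 444 CPM of Ucp1). Cluster 0 had 2782 CPM in mPRAT (46.5%, 14.0 CPM of Ucp1). At 1 month the sum of mPRAT over iBAT was 0.879, with 6 of 79 members at least 1.5-fold lower against 11.8% of genes. At 2 months it was 0.742, with 28 of 79 lower against 14%, and in cold 0.815, with 8 of 80 lower against 8.08%. The count at 1 month was thus below the background and that in cold near it. At 2 months macrophage-like nuclei of iBAT numbered 41, under the 50 asked of a class, and no subtracted sum is given.

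Cox7a1 and Cox8b, both tissue isoforms of complex IV, differed between mPRAT and each other depot at 6 months and 22 °C by larger folds than the sums. Cox7a1 and Cox7a2 encode alternative forms of subunit 7a of complex IV, the first in heart, muscle and brown fat and the second in most tissues. Cox8b and Cox8a are the same kind of pair for subunit 8. Atp5g1, Atp5g2 and Atp5g3 encode one identical mature c-ring subunit of ATP synthase with different import peptides.

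Cox8b had 29.6, 20.6 and 35.9 CPM in mPRAT at 1, 2 and 6 months and 65.7 in cold, and 45.0, 42.2, 60.3 and 87.5 CPM in the same iBAT groups. It had 1.55 and 1.84 CPM in lPRAT at 2 and 6 months, 1.93 in iWAT and 3.67 in cold iWAT. All 8 libraries of mPRAT and iBAT thus lay above all 4 of the other depots. At 6 months the level was 18.6-fold higher in mPRAT than in iWAT (interval 14.5 to 24.1) and 19.5-fold higher than in lPRAT (13.4 to 29.5). Cox8b took 43.7% to 50.5% of Cox8 UMIs in mPRAT, 55.9% to 59.7% in iBAT, 3.33% and 4.35% in lPRAT, and in iWAT 8.77% (6.88 to 11.0, Clopper-Pearson) at room temperature and 16.1% (12.6 to 20.2) in cold. With the macrophage-like level subtracted the iWAT shares were 26.4% and 13.1%, so their order turned, and that of mPRAT at 6 months was 67.6%. The lPRAT shares were then 31.4% at 2 months (4 Cox8b UMIs) and 7.97% at 6 months. In iBAT at 6 months and room temperature Cox8a and Cox8b were set to 0, so no share was left. Its partner Cox8a had 19.1 CPM (cold iWAT) to 67.1 (cold iBAT), and 44.8 and 40.5 CPM in lPRAT.

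Cox7a1 had 9.73, 4.85 and 9.87 CPM in mPRAT at 1, 2 and 6 months and 25.9 in cold, and 17.0, 11.9, 24.4 and 47.6 CPM in iBAT. In lPRAT it had 5 UMIs at 6 months and 0 at 2 months, where 3 counts, taken here as the limit that a count of 0 allows, equal 1.16 CPM, and in iWAT 3 UMIs at room temperature and 13 in cold. The ratio of mPRAT over iWAT was 116 with a counting interval of 39.1 to 565. Its share of Cox7a1 and Cox7a2 together was 32.5%, 16.0% and 27.9% in mPRAT at 1, 2 and 6 months and 39.9% in cold, 44.6%, 30.4%, 45.0% and 50.1% in the same iBAT groups, and 0.541% (0.112 to 1.57) and 4.47% (2.40 to 7.52) in iWAT. With the macrophage-like level subtracted, the share at 6 months was 39.9% in mPRAT and 54.3% in cold, 0% and 50.2% in iBAT, and 100% and 0% in iWAT. The values of 0% and 100% arose where a paralogue lay below its macrophage-like level and was set to 0. In iWAT they rest on 3 and 13 Cox7a1 UMIs. The order of depots was thus not kept, and no order is read from these values. Cox7a2 itself had 15.7 CPM in iWAT and 25.6 in mPRAT at 6 months.

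Macrophage-like nuclei held these transcripts too. In macrophage-like nuclei of iBAT at 6 months and room temperature Cox7a1 had 33.9 CPM (11 UMIs) and Cox8b 67.8 CPM (22 UMIs), both above the adipocyte-like 24.4 and 60.3 CPM of that library. In macrophage-like nuclei of mPRAT at 6 months they had 0 and 6.67 CPM, and in those of cold iBAT 20.3 and 30.5 CPM. In iBAT at 6 months the adipocyte-like levels of the 2 genes thus did not stand above the macrophage-like ones.

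Among the c-ring genes, Atp5g3 was higher in iBAT than in mPRAT in each matched group. It had 111, 63.5 and 112 CPM in iBAT at 1, 2 and 6 months and 102 in cold, and 37.6, 24.7, 44.8 and 66.1 CPM in the same mPRAT groups. It had 18.9 and 21.1 CPM in lPRAT and 12.3 and 18.3 in iWAT. Its share of the 3 genes was 71.7% to 84.4% in iBAT, 48.7% to 57.4% in mPRAT, 39.5% and 45.2% in lPRAT and 40.3% and 43.1% in iWAT. Atp5g2 took most of the rest (15.4% to 28.2% in iBAT and 53.7% to 55.2% in iWAT). Atp5g1 took 0.0604% to 0.475% in iBAT, 1.22% to 3.04% in mPRAT and 3.25% to 9.68% in iWAT and lPRAT. With the macrophage-like level subtracted, the Atp5g3 share at 6 months and room temperature was 95.2% in iBAT and 96.0% in mPRAT. It was 100% in lPRAT and 87.8% in iWAT, so the order of depots did not hold there. The 100% arose because Atp5g1 and Atp5g2 of lPRAT lay below the macrophage-like level and were set to 0. In the other matched groups iBAT stayed above mPRAT, with 90.9% against 87.8% at 1 month and 72.4% against 66.1% in cold. At 2 months, with 41 macrophage-like nuclei in iBAT, the shares were 82.3% and 58.3%.

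**Figure D4:**
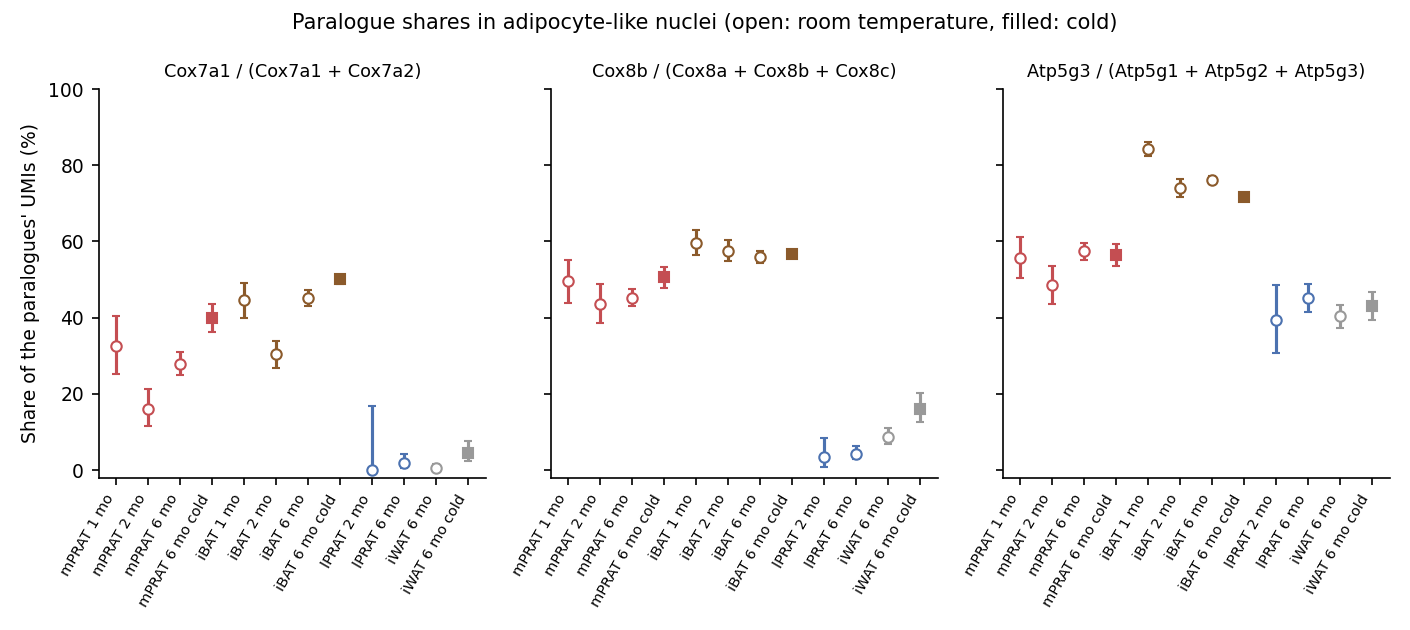
Share of UMIs of Cox7a1 among Cox7a1 and Cox7a2, of Cox8b among the Cox8 genes and of Atp5g3 among the Atp5g genes, in adipocyte-like nuclei of each library (percent), open at room temperature and filled in cold, with exact 95% Clopper-Pearson intervals. Cox8b lies at 43.7% to 59.7% in mPRAT and iBAT and at 3.33% to 16.1% in lPRAT and iWAT, and Atp5g3 at 71.7% to 84.4% in iBAT.

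The isoforms also differed between clusters of 1 library. In mPRAT at 6 months Cox8b took 22.2% of Cox8 UMIs in cluster 0 and 60.5% in cluster 3, and Cox7a1 took 6.34% and 43.9% of the Cox7a pair. In cold iWAT Cox8b took 68.8% in cluster 9 (22 Cox8b UMIs) and 9.49% in cluster 5. Among the other pairs, Cox6b2, a testis isoform, took 1.62% (lPRAT at 6 months) to 10.1% (iBAT at 1 month) of Cox6b UMIs. Cox4i2, Cox6a2, Cox7b2 and Ndufa4l2 took at most 1.35% of theirs. With the macrophage-like level subtracted, Cox6b2 took up to 21.0% (mPRAT at 2 months). Cox4i2 then took 8.27% and Cox7b2 100% in iWAT at room temperature, and Cox6a2 10.6% in iBAT at 6 months, each on 4 UMIs.

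The proximal sequences of 5 members are shown: Cox7a1 and Cox8b for their large depot folds, Atp5g3 for its level in iBAT, Sdhd as a member past the fold in all 3 cold comparisons and Cox5b as one of the 5 highest in cold mPRAT. Each line holds the 250 bases before a RefSeq transcription start in GRCm38.p6, 5′ to 3′ on the gene's strand, and capitals mark the motif named for that gene in the next paragraph, read on the opposite strand. Cox7a1 lies at chr7:30183921-30184170 (plus strand), Cox8b at chr7:140900447-140900696 (minus), Atp5g3 at chr2:73911327-73911576 (minus), Sdhd at chr9:50603850-50604099 (minus) and Cox5b at chr1:36691237-36691486 (plus).
Cox7a1: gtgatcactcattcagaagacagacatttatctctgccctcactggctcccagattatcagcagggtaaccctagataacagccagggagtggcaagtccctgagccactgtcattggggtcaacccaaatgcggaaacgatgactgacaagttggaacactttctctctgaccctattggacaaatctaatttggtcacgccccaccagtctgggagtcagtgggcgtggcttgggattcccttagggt
Cox8b: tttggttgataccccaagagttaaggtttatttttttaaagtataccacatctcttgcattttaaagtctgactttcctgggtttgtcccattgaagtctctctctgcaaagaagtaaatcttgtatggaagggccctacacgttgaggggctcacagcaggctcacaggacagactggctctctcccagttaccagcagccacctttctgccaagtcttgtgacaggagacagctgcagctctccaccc
Atp5g3: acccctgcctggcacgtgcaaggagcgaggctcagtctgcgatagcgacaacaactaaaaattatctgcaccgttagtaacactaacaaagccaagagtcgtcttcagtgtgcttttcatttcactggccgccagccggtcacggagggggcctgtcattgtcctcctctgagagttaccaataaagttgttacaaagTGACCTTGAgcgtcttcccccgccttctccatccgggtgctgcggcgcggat
Sdhd: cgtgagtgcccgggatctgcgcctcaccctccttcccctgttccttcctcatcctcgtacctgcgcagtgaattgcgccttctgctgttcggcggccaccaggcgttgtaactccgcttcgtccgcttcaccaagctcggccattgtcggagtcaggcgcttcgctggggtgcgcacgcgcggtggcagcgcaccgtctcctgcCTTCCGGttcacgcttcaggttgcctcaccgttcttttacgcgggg
Cox5b: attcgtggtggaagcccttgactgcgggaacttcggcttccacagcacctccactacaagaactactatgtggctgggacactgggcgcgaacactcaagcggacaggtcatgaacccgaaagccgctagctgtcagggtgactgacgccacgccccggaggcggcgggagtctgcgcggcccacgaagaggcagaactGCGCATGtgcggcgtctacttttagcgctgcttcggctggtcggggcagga

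In these windows Atp5g3 held the binding motif of estrogen-related receptors, TCAAGGTCA, 52 bases before the start, counted to its farthest base. Sdhd held the ETS motif CCGGAAG 46 bases before it, and Cox5b the NRF1 core CATGCGC 51 bases before it. The Atp5g3 window also held 1 E-box, CACGTG, left in lower case. Those of Cox7a1 and Cox8b held none of the 9 motifs searched. Among the 67 members of 85 with a RefSeq promoter, the NRF1 core was in 14.9% (10 members), the full palindromic NRF1 motif, which contains it, in 5.97%, and CCGGAAG in 17.9% (12 members). Among all 27025 genes those shares were 3.68%, 0.877% and 7.83%.

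The other motifs were in fewer members than these or in a share closer to that of all genes, apart from the cyclic AMP response element. TCAAGGTCA was in 1.49% of members (1 member) and 0.422% of genes, its core AAGGTCA in 7.46% and 4.7%, and the cyclic AMP response element TGACGTCA in 5.97% and 1.77%. The YY1 motif AAGATGGC was in 1.49% and 1.83%, the E-box CACGTG in 7.46% and 6.86%, and TATAAA in 10.4% and 14.3%. All were searched on both strands. A match describes the letters of the window and is not a binding site.

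With age the summed subunits were higher in iBAT. At 6 months the sum was 1.20-fold that at 1 month (1.18 to 1.21), with 68 of 80 members higher. Past the fold were 12 members upward and 1 downward, against 14.2% and 16.1% of all genes, so the upward count of 12 (15% of members) was near the background. The median member had a log2 ratio of 0.31 and the median gene 0.01. The largest ratios were those of Cox7b (88.0 against 44.6 CPM, log2 0.97), Atp5e, the epsilon subunit of ATP synthase (40.9 against 21.4, 0.90), Cox6a1 (56.3 against 31.2, 0.83), Atp5g2 (34.7 against 20.3, 0.75) and Ndufa6 (0.70). The lowest were Cox6b2 (1.73 against 5.27 CPM, -1.20), Ndufv1 (39.9 against 54.6, -0.44) and Atp5h (46.3 against 58.4, -0.33).

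In iBAT the macrophage-like level of the subunits also differed with age, 3274 CPM at 6 months against 1722 at 1 month, and the endothelial-like level was 5773 against 1949. With each gene's macrophage-like level subtracted, and differences under 0 set to 0, the log2 ratio of the sum was -0.43 instead of 0.26. In that setting 40 members were past the fold downward. Cox6a1 then turned to -3.56, Atp5g2 to -1.15 and Atp5e to -0.63. Their macrophage-like levels rest on 18, 10 and 14 UMIs at 6 months and on 1, 1 and 2 at 1 month. The part of free RNA was not tested.

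In mPRAT the sum at 6 months was 0.997-fold that at 1 month (0.981 to 1.01), with 39 members higher and 41 lower. Past the fold were 2 upward and 6 downward, against 14.6% and 18.8% of all genes, with TMM scaling 5 and 0, and with the macrophage-like levels subtracted 17 and 28. Ndufb3, an accessory subunit of complex I, had 84.3 against 43.2 CPM (log2 0.95), and Ndufs3, in its peripheral arm, 101 against 170 (-0.74). The summed 10 kidney tubule markers had 106 and 84.8 CPM in adipocyte-like nuclei of mPRAT at 1 and 2 months and 2.85 at 6 months; their part in the result was not tested.

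The even total of mPRAT covered clusters that differed. Cluster 0 held 12.3%, 28.8% and 46.5% of adipocyte-like nuclei at 1, 2 and 6 months, with 2572, 2629 and 2782 CPM of the subunits. Cluster 1 held 50.9%, 41.4% and 7.10%, with 3953, 4089.8 and 5551 CPM. At 6 months cluster 3, with 5042 CPM, held 32.7%. The nuclei low in subunits were thus more frequent in the older libraries, and the clusters high in subunits had higher levels there.

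In lPRAT the sum was 1.09-fold higher at 6 than at 2 months (1.06 to 1.12). Past the fold were 18 of 78 members upward and 9 downward, against 26% and 18.3% of all genes, so both counts lay below the background. With TMM scaling 25 and 7 were past it. Without cluster 5 the log2 ratio of the sum was 0.32 instead of 0.12, with 30 members past the fold upward. With the macrophage-like levels subtracted it was -0.046, with 24 members past the fold downward. With only nuclei of at most 1% mitochondrial UMIs it was 0.25, with 30 members upward and 4 downward. Atp5d had 20.3 against 3.48 CPM (log2 2.25), Atp5h 31.9 against 8.89 (1.73) and Uqcrq 15.6 against 5.41 (1.37). At the low end Ndufa6 had a log2 ratio of -1.17, Cox7a2l had 18.1 against 38.3 CPM (-1.04) and Ndufs6 5.59 against 11.6 (-0.93). The 2-month library was the shallowest, with a median of 894 UMIs per adipocyte-like nucleus, and 1.96% of its UMIs were mitochondrial against 0.212% at 6 months. Cluster 2 held 82.6% of its adipocyte-like nuclei and cluster 5 90.0% of those at 6 months.

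Shorter members had larger cold ratios in mPRAT and iBAT. In mPRAT the median log2 ratio was 0.96 for the 26 measured members under 5000 bases, 0.74 for 31 of 5000 to 10000, 0.67 for 13 of 10000 to 20000 and 0.40 for 10 longer ones. The medians of all genes in these bands were 0.22, 0.14, 0.01 and -0.13. In iBAT the members had 0.75, 0.50, 0.36 and 0.31, and all genes 0.10, 0.01, -0.08 and -0.18. In iWAT they had 0.30, 0.36, 0.35 and 0.33, and all genes -0.24, -0.24, -0.25 and -0.14. In each band and depot the median member lay above the median gene. In mPRAT 24 of 26, 22 of 31, 9 of 13 and 0 of 10 members in these bands were past the fold upward. Of all genes 29.2%, 22.3%, 15.7% and 12.9% were. In iBAT 16 of 26, 9 of 30, 4 of 14 and 0 of 10 were, against 19.7%, 17.2%, 12.5% and 10.8% of genes. In iWAT 3 of 25, 5 of 31, 2 of 13 and 0 of 10 were, against 4.67%, 4.5%, 4.82% and 7.42%. No member of 20000 bases or more was thus past the fold upward in cold.

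**Figure D5:**
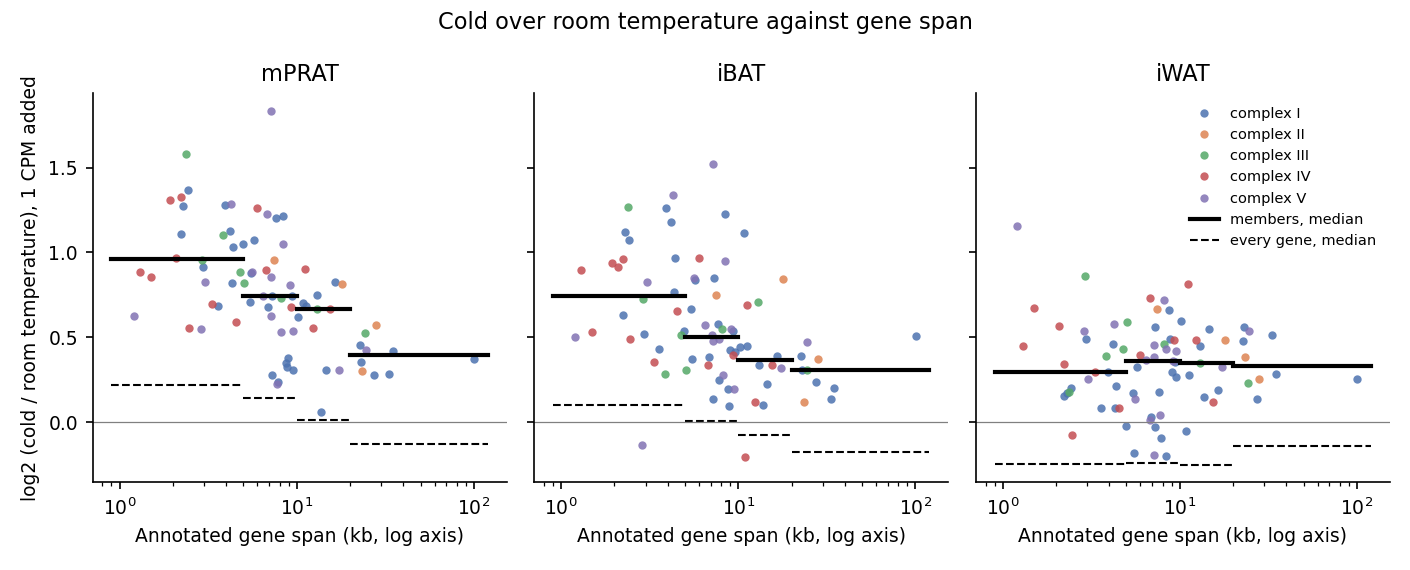
Log2 ratio of cold over room temperature of each member against the length of its gene in the annotation (kb, log axis), in mPRAT, iBAT and iWAT, with the medians of members (solid) and of all genes (dashed) in each length band. The medians are higher for shorter members in mPRAT and iBAT, with values of 0.96 and 0.75 under 5000 bases against 0.40 and 0.31 from 20000 bases.

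The 13 subunits encoded by mitochondrial DNA did not follow the nuclear ones. In cold mPRAT their sum was 5.34-fold higher, with 12 of 13 past the fold, from mt-Atp8, the short second subunit of the synthase's membrane part (log2 0.03), to mt-Nd2 of complex I (2.80). In cold iBAT their sum was 0.316-fold, with 13 of 13 past the fold downward, from mt-Atp8 (-2.46) to mt-Nd1 (-0.75). In cold iWAT it was 0.824-fold, with 1 past the fold upward, mt-Nd3 (0.75), and 5 downward, mt-Nd6 the lowest (-1.10). These transcripts are made outside the nucleus, and in sorted nuclei they measure carried-over cytoplasm as well as expression; the 2 cannot be told apart.

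Of 50 assembly factors of the complexes, 49 were measured; in cold 20 were past the fold upward and 1 downward in mPRAT, 19 and 0 in iBAT and 3 and 2 in iWAT. Of all genes 16.7%, 13.2% and 6.21% were past it upward and 16.7%, 19.2% and 18.7% downward in the same depots, so the 3 of 49 in iWAT (6.12%) were at the background. Ndufaf4, a complex I assembly factor, was the highest in each depot, with 155 against 53.8 CPM in mPRAT (log2 1.51), 189 against 62.0 in iBAT (1.59) and 37.0 against 21.6 in iWAT (0.75). The lowest were Nubpl in mPRAT (-0.66), Tmem186 in iBAT (-0.49) and Uqcc3 in iWAT (-0.92). Of 20 electron carriers and donors, 8, 6 and 5 were past the fold upward and 1, 2 and 0 downward in mPRAT, iBAT and iWAT. Pdss1, which makes the side chain of ubiquinone, was highest in mPRAT and iBAT (1.40 and 1.33), and Gpd2, the mitochondrial glycerol phosphate dehydrogenase, in iWAT (259 against 80.7 CPM, 1.67). Coq8a, a ubiquinone synthesis factor, was lowest in mPRAT (-1.18) and iBAT (-1.79), and Coq2 in iWAT (-0.44).

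Of 13 citric acid cycle enzymes, 8, 4 and 5 were past the fold upward in cold mPRAT, iBAT and iWAT and 0 downward in each, against 16.7%, 13.2% and 6.21% of all genes upward. Idh3g, a subunit of isocitrate dehydrogenase, was highest in mPRAT (1.22) and iBAT (1.20) and lowest in iWAT (-0.18). Sucla2, of succinyl-CoA synthetase, was lowest in mPRAT (-0.13) and iBAT (-0.44). Of 19 regulators of mitochondrial biogenesis, 9 of 19, 7 of 19 and 6 of 18 measured were past the fold upward and 0, 1 and 1 downward. Esrrb, an estrogen-related receptor, was highest in mPRAT (22.4 against 4.05 CPM, 2.21) and iBAT (55.1 against 7.68, 2.69) and Esrrg in iWAT (396 against 77.5, 2.34). The lowest were Gabpb1 in mPRAT (-0.52), Ppara in iBAT (2264 against 4786 CPM, -1.08) and Twnk, the mitochondrial DNA helicase, in iWAT (-0.65).

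Against iWAT at 6 months, mPRAT had 22 of 49 assembly factors, 13 of 20 electron carriers, 12 of 13 citric acid cycle enzymes and 8 of 19 regulators past the fold upward, with 0 downward on each list, against 17% and 11.9% of all genes. The highest assembly factor was Ndufaf4 (1.28), the highest carrier Coq8a (145 against 14.4 CPM, 3.25) and the highest regulator Esrrg (1164 against 77.5 CPM, 3.89). Against lPRAT 12 of 49, 7 of 20, 11 of 13 and 8 of 19 were upward and 1, 0, 0 and 0 downward, against 15.4% and 15.8% of all genes, with Cox10 (1.43), Coq8a (3.25), Sucla2 (2.26) and the coactivator Ppargc1a (643 against 37.0 CPM, 4.08) highest. Against iBAT 0 were upward on these 4 lists, and 3 of 49, 6 of 20, 7 of 13 and 7 of 19 were downward, against 14.2% and 11.2% of all genes, so that the assembly factors (6.12%) lay below the background, with Foxred1 (-0.79), Coq8a (-2.19), Sucla2 (-1.09) and Ppara (-1.38) lowest. The 3 comparisons share the mPRAT library.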

How the data were processed

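Nuclear RNA was counted in 12 libraries. The deposited matrices hold raw UMI counts per gene and barcode; per the submitters' processing notes the authors used Cell Ranger 7.0.0 and mm10, and whether intronic reads were counted, or how reads shared with pseudogenes were assigned, is not given in the sources used here. No column of the files was left unused (0).

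Barcodes under 500 UMIs or 300 genes, or over 10% mitochondrial UMIs, were dropped. Scrublet scores ranked doublets; its own threshold marked under 0.5% in several libraries, so the top share at 0.8% per 1000 barcodes was removed. Nuclei were clustered in scanpy 1.11.5 (2000 variable genes without members, related lists, mitochondrial, ribosomal and sex-linked genes; 30 principal components; 15 neighbours; Leiden resolution 1). Clusters were named from marker lists; a first rule that ranked leading genes against every other cluster left cluster 5 unnamed, and the rule was then changed, after seeing the data. Counts were summed per class and library. Levels used Python 3.11.15, numpy 2.4.6, scipy 1.17.1 and pandas 2.3.3, and TMM factors edgeR 4.0.16. The clustering used igraph 0.11.9 and scikit-learn 1.9.0, and the figures matplotlib 3.10.9. The fold calculations were tested on simulated data. Gene lengths came from the annotation and 67 of 85 promoters from RefSeq.

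The members were taken by symbol, with no measured value. The genes named and the related lists were chosen with earlier results of these data known. Named were all paralogues, a set of core subunits, the 5 highest and 3 lowest members per comparison with at least 50 UMIs, and, of the 3 highest and 3 lowest on each related list, the outermost in the cold and depot comparisons. Some values that this rule names are not reported here.

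Alternatives were TMM scaling, at most 1% or no limit of mitochondrial UMIs, doublets kept, and the macrophage-like level subtracted. Others were the mean of nuclei in place of summed counts, a 2-fold limit, no minimum count, long genes alone, and adipocyte-like nuclei without cluster 5. The macrophage-like level was subtracted gene by gene, and differences under 0 were set to 0. That level holds the nuclei's own expression as well as free RNA.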

Additional observations from a re-analysis of the deposited data

Results flagged for a closer look

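The cold folds of the summed mitochondrially encoded subunits had opposite directions: 5.34 in mPRAT against 0.316 in iBAT, and 5.34 in mPRAT against 0.824 in iWAT. Their folds with age, 6 over 1 months, were opposite too, 0.622 in mPRAT against 1.59 in iBAT. Among the nuclear members, Ndufs5, an accessory subunit of complex I, was 1.86-fold higher in cold mPRAT (interval 1.69 to 2.05) and 0.878-fold in cold iWAT (0.779 to 0.988). Each of these groups is 1 library, so the differences between the folds were not tested. The mitochondrial share of adipocyte-like UMIs, which these 13 genes largely make up, was 1.39% in cold mPRAT and 0.26% at room temperature.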

How the results depend on the processing

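In mPRAT, iBAT and iWAT the summed subunits were higher in cold under each of the alternatives run, and in mPRAT higher than in iWAT and lPRAT. The sum of mPRAT at 6 over 1 months, a log2 ratio of -0.0049, turned to 0.16 with TMM scaling, 0.085 as the mean of nuclei, 0.0011 with no mitochondrial limit and 0.026 without cluster 5. With macrophage-like levels subtracted, iBAT at 6 over 1 months turned to -0.43 and lPRAT at 6 over 2 months to -0.046. Of the other values, 1652 stayed within their counting interval, 520 moved and 24 reversed; of the sums and counts, 146 stayed, 82 moved and 6 reversed. TMM scaling shifted the median log2 ratio of all genes by up to 0.21 in the main comparisons (cold iBAT). Depth limits lPRAT at 2 months most. No paired analysis was possible because each group is 1 library, and no library could be left out. Leaving out cluster 5 and the restriction to long genes were chosen after seeing the data.

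Log2 ratios of the sum moved as follows. With TMM scaling they were 0.24 in iBAT at 6 over 1 months, 0.23 in lPRAT at 6 over 2 months, 0.79 in cold iBAT, 0.47 in cold iWAT, -0.56 for mPRAT over iBAT and 0.97 for mPRAT over iWAT. With at most 1% mitochondrial UMIs they were 0.24 (iBAT age), 0.25 (lPRAT age), 0.63 (cold mPRAT), 0.55 (cold iBAT), -0.43 (mPRAT over iBAT), 1.08 (over iWAT) and 0.63 (over lPRAT). With doublets kept mPRAT over iBAT was -0.46. With genes of 10000 bases or longer alone they were 0.21 (iBAT age), 0.48 (cold mPRAT), 0.40 (cold iBAT), -0.38 (mPRAT over iBAT), 0.91 (over iWAT) and 0.71 (over lPRAT). With macrophage-like levels subtracted they were -0.11 (mPRAT age), 0.85, 1.14 and 1.57 (cold mPRAT, iBAT and iWAT), -0.0039 (mPRAT over iBAT), 2.58 (over iWAT) and 1.58 (over lPRAT). As the mean of nuclei they were 0.18 (lPRAT age), 0.62 (cold mPRAT), 0.43 (cold iWAT), -0.37 (mPRAT over iBAT), 1.18 (over iWAT) and 0.68 (over lPRAT). Without cluster 5 they were 0.23 (iBAT age), 0.32 (lPRAT age), 0.76 (cold mPRAT), 0.88 (cold iWAT), -0.37 (mPRAT over iBAT), 1.19 (over iWAT) and 0.48 (over lPRAT).

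Counts past the fold moved too, and the cause was not tested. The share of all genes is not given under these alternatives, so the counts have no background beside them. At 2-fold they were 0 higher (iBAT age), 0 and 0 higher and lower (mPRAT age), 7 and 3 (lPRAT age), 19, 9 and 1 higher (cold mPRAT, iBAT and iWAT), 3 lower (mPRAT over iBAT) and 11 and 0 (over lPRAT). With TMM they were 5 and 0 (mPRAT age), 64 and 18 higher (cold iBAT and iWAT), 44 lower (mPRAT over iBAT) and 0 lower (over lPRAT). With at most 1% mitochondrial UMIs lPRAT age had 30 and 4. With doublets kept, and with no mitochondrial limit, 1 member was higher in mPRAT over iBAT. With macrophage-like levels subtracted they were 17 and 28 (mPRAT age), 40 lower (iBAT age), 24 lower (lPRAT age), 4 lower (cold mPRAT), 57 and 1 (cold iBAT), 51 and 5 (cold iWAT), 30 and 16 (mPRAT over iBAT) and 0 lower (over lPRAT). As the mean of nuclei they were 5 and 2 (mPRAT age), 18 higher (cold iWAT), and 1 and 12 (mPRAT over iBAT). Without cluster 5 they were 30 higher (lPRAT age), 62 higher (cold iWAT), 12 lower (mPRAT over iBAT) and 4 lower (over lPRAT).

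Other values reversed. The median member of mPRAT at 6 over 1 months was 0.15 with TMM, 0.10 as the mean of nuclei and 0.023 without cluster 5, and Atp5g1 in mPRAT over lPRAT was 0.87 without cluster 5. The rest reversed with macrophage-like levels subtracted: Ndufc2 to 1.36 in mPRAT with age; the median member to -0.58, Cox6a1 to -3.56, Cox8a to -4.39, Cox6b1 to -0.37, Atp5g2 to -1.15 and Atp5e to -0.63 in iBAT with age; Cox7a2 to -0.22, Cox5a to 1.42 and Cox5b to -1.15 in lPRAT with age; Cox6a1 to -0.16 in cold mPRAT; and Uqcrq to -0.59 in cold iWAT. In mPRAT over iBAT the median member turned to 0.14, Cox7a1 to 3.44, Cox8b to 4.92 and Cox6a1 to 3.03. Cox6b1 turned to 0.011, Ndufv1 to 2.12, Uqcrfs1 to 0.12 and Atp5d to 2.56. Differences under 0 were set to 0, as for Cox7a1, Cox8b, Cox8a, Atp5d and Atp5e in iBAT at 6 months. Those ratios rest on the other library and the added 1 CPM.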

Other observations

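The subunits were also measured in other nuclei of the same suspensions. In endothelial-like nuclei they had 1838, 1771 and 2363 CPM in mPRAT at 1, 2 and 6 months and 1949, 2217 and 5773 CPM in iBAT. In iBAT at 6 months 3.78% of endothelial-like UMIs were mitochondrial, and the adipocyte-like level was 0.851-fold the endothelial-like one (interval 0.824 to 0.880). Endothelial-like nuclei of cold iBAT had 5946 CPM. In ASPC-like nuclei the levels ran from 1242 CPM (iWAT at room temperature) to 2730.4 CPM (cold iBAT).

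The adipocyte-like level stood above the macrophage-like level of its own library in all 11 libraries with at least 50 macrophage-like nuclei, from 1.17-fold (1.12 to 1.22) in iWAT to 2.39-fold (2.05 to 2.80) in 1-month iBAT. At 6 months and room temperature the iBAT ratio was 1.09 (0.961 to 1.23) for members under 5000 bases, 1.36 and 1.64 for the next 2 length bands and 2.05 (1.81 to 2.33) for members of 20000 bases or more. In cold iBAT the ratios of the same bands were 2.40, 2.30, 2.29 and 2.38.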
